A study of Homo sapiens with 6 samples.

Results

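Autophagy and lysosome genes were followed in H226 cells, an established line of human lung squamous carcinoma, after knockdown of the long noncoding RNA *SWINGN*. The genes were chosen by name: the numbered *ATG* genes, the LC3 and GABARAP family, the subunits of the vacuolar proton pump (*ATP6V0* and *ATP6V1* names), the cathepsins (*CTS* and 1 letter), and *SQSTM1*, *NBR1*, *ULK1*, *WIPI1*, *LAMP2*, *TFEB*, *MCOLN1* and *BECN1*. The rule itself used no measured value, but it was set with earlier results of these data known. It gave 60 of the 17222 gene names in the table. H226 cells were transiently transfected with a control antisense oligonucleotide (ASO_CTRL, 3 libraries) or with ASO_LINC#3, directed against *SWINGN* (3 libraries), and were collected after 48 h. Since 1 oligonucleotide against *SWINGN* was used, effects of the transcript and of that oligonucleotide cannot be told apart. The labels do not say whether the libraries of a condition come from separate cultures, so p-values measure only the spread between these libraries. *SWINGN* itself was not analysed here.

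Macroautophagy encloses cytoplasm in a double membrane and delivers it to the lysosome. The ULK1 kinase complex and the BECN1 lipid kinase complex start the process, WIPI proteins read the lipid that is made, and ATG proteins attach LC3 and GABARAP proteins to the growing membrane, where receptors such as p62, the product of *SQSTM1*, bring in cargo. The vacuolar ATPase acidifies the lysosome through its membrane sector V0 and its ATP-hydrolysing sector V1, and cathepsins, most of them proteases that work in acid, degrade the content. TFEB, a transcription factor held in the cytoplasm by mTORC1 when nutrients are plentiful, binds a DNA element with the core CACGTG in front of many lysosomal genes. Only RNA levels were measured here, and neither proteins nor autophagic flux.

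The reads counted on genes ranged from 5738340 to 10546786 in the control libraries and from 3686828 (ASO_LINC#3 replicate 3) to 6780016 in the knockdown libraries, so replicate 3 of ASO_LINC#3 gives the least precise values. Of the 6 markers of squamous epithelium, *KRT5* stood at 94.4 to 117 CPM (read counts scaled by library size, as usual for RNA-seq) in the control libraries and at 62.6 to 77.8 CPM after knockdown, *KRT6A* reached at most 2.06 CPM in any library, and the other 4 were not analysed here. The summed level of the simple-epithelial keratins *KRT7*, *KRT8*, *KRT18* and *KRT19* was 11696 to 12642 CPM in controls and 7103 to 12434 CPM after knockdown, where replicate 3 was at the level of the controls. That of 4 mesothelial markers was 634 to 834 CPM in controls and 209 to 323 CPM after knockdown, most of it *CALB2* (516 to 698 and 119 to 208 CPM), while *MSLN* was at 26.8 to 30.8 and 18.2 to 49.6 CPM. Of the leukocyte markers, *CD14* was at 1.48 to 2.10 CPM in controls and 0.735 to 2.17 CPM after knockdown, and *CD68* at 1.08 to 1.89 and 2.79 to 6.51 CPM, for a sum of 2.56 to 3.61 and 3.53 to 8.68 CPM. The part of these shifts in the results was not tested.

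After *SWINGN* knockdown, 6 autophagy and lysosome genes rose: *WIPI1*, *MAP1LC3B2*, *ATG16L2*, *MAP1LC3B*, *CTSL* and *SQSTM1*, by 0.73 to 1.38 on the log2 scale. They include the genes of LC3B, of the p62 receptor and of a lysosomal cathepsin. None of the 57 tested was called lower. To be called, a gene needed an adjusted p below 0.01 in edgeR's quasi-likelihood test, with Benjamini-Hochberg adjustment over the 14660 genes tested, and a log2 fold change beyond 0.5. Of the 60 genes, 57 passed the filter on low counts and were tested. The 6 called are 10.5% of these 57, beside 7.54% of all genes tested, all 6 were higher, beside 4.91% of all genes, and 0 were lower, beside 2.63%. Among the 57, 5 lower genes had an unadjusted p below 0.05, and 1 lower gene was called both by DESeq2 and by limma-voom. In RNA of a whole culture, a change in the mix of cells and a change in RNA per cell cannot be told apart.

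Over the 57 tested genes the log2 fold change was above 0 in 38 and below 0 in 19, with a median of 0.22, whereas the median of all genes tested was -0.0027. With 1 library left out, the median over the set ran from 0.08 (without ASO_LINC#3 replicate 3) to 0.23 (without ASO_LINC#3 replicate 2). It was 0.13 without ASO_CTRL replicate 3. The 3 libraries of each condition did not overlap for 22 of the 57 (38.6%, beside 36.1% of all genes tested), 19 of them higher and 3 lower after knockdown. At an adjusted p below 0.05 with the same fold bound, 11 of the 57 were called (19.3%, beside 16.8% of all genes), 9 higher and 2 lower. The number called depended on the library left out. It was 3 without ASO_CTRL replicate 1 (5.36%, beside 3.32% of all genes) and 1 without ASO_CTRL replicate 3 (1.75%, beside 2.42%). It was 3 without ASO_LINC#3 replicate 1 (5.26%, beside 2.87%) and 16 without ASO_LINC#3 replicate 3 (27.6%, beside 17.2%). Without ASO_CTRL replicate 2 or ASO_LINC#3 replicate 2 it was 4 (6.90% each, beside 3.32% and 3.50%). The calls over all genes moved as well in these fits, between 359 and 2616.

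**Figure D1:**
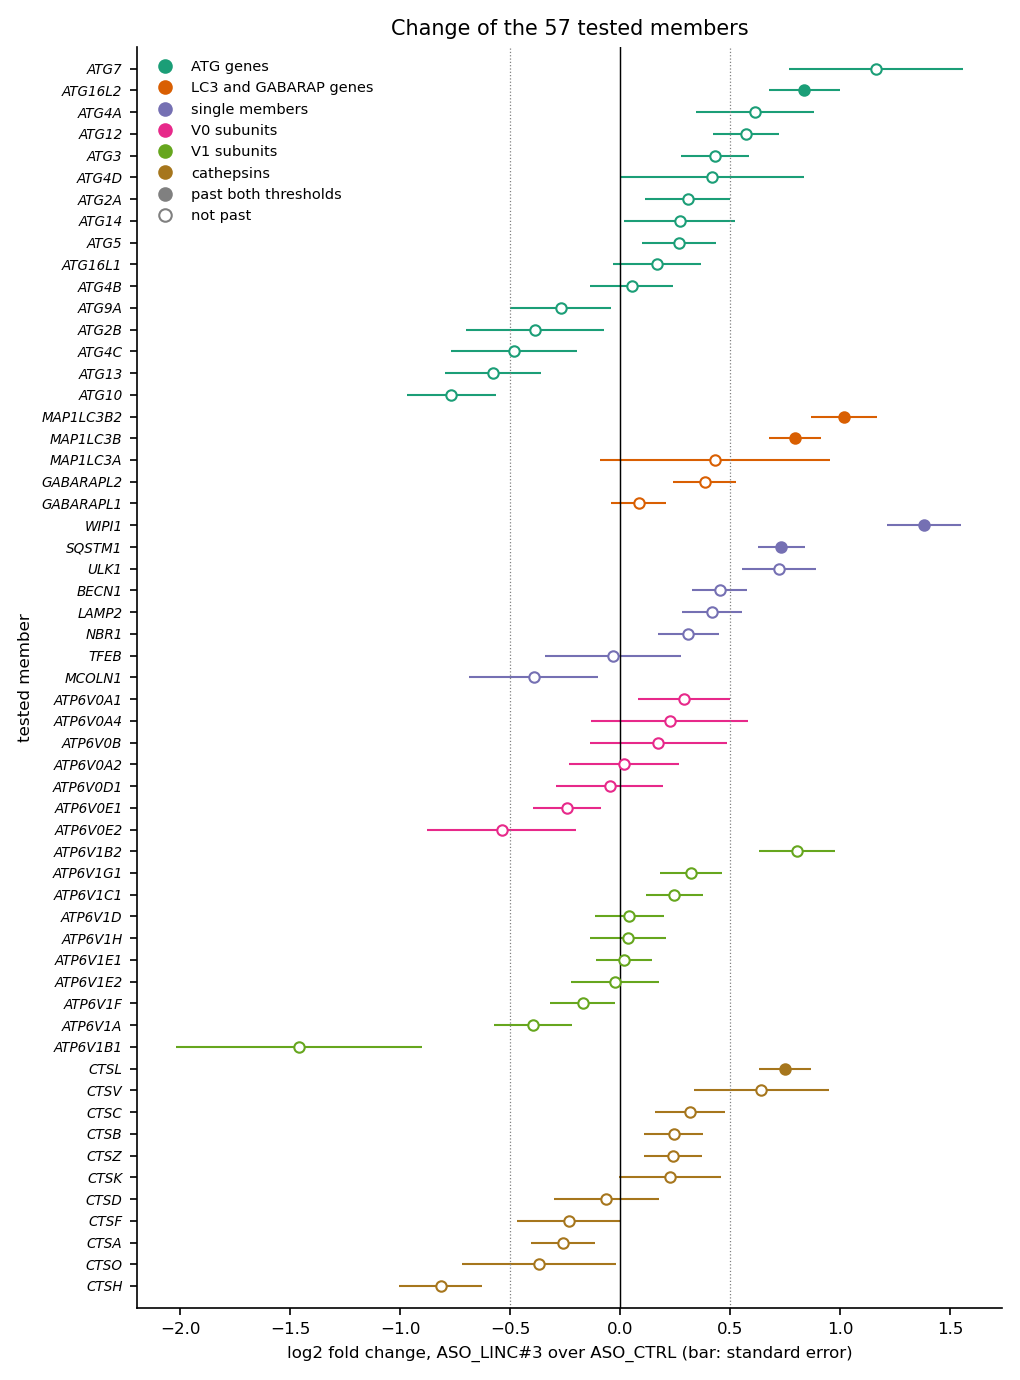
Log2 fold change (ASO_LINC#3 over ASO_CTRL, x axis) of the 57 tested autophagy and lysosome genes, 1 gene a row and coloured by family, with bars for the standard error and dotted lines at 0.5 on either side of 0. The 6 filled points passed both thresholds and lie between 0.73 and 1.38, and *ATP6V1B1* at -1.46 has the longest bar.

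The summed level of all 60 genes was 5272, 5194 and 5330 CPM in ASO_CTRL replicates 1 to 3 and 7048, 7164 and 7404 CPM in ASO_LINC#3 replicates 1 to 3. All 3 knockdown libraries lay above the controls. *SQSTM1* alone held 35.1% to 36.5% of these reads in the controls and 42.5% to 44.6% after knockdown. Without *SQSTM1* the sum was 3346 to 3443 CPM in controls and 4055 to 4100 CPM after knockdown. The sums are dominated by the few most abundant transcripts and were not tested.

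Among the genes that start autophagy, *WIPI1* had the largest log2 fold change of those called. Its level was 7.54, 7.74 and 7.73 CPM in the 3 control libraries and 20.3, 21.0 and 18.4 CPM in the 3 knockdown libraries. The groups lay far apart, at 7.67 ± 0.112 against 19.9 ± 1.34 CPM (SD, n = 3 each), a log2 fold change of 1.38 with a standard error of 0.17 and an adjusted p of 0.00045 in edgeR's quasi-likelihood test. *WIPI1*, whose product binds the phosphoinositide made by the BECN1 complex, lies on the minus strand of chr17:66417089-66453654 (GRCh37). It was called in each of the 6 fits that left out 1 library. In the annotation 25.4% of the 75-base stretches of its transcript are shared with *ARSG*, which reached at most 1.63 CPM in any library.

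*ULK1*, the kinase that opens the pathway, was measured at 22.5, 31.0 and 25.5 CPM in controls and at 42.0, 38.5 and 49.9 CPM after knockdown. The libraries did not overlap, but its log2 fold change of 0.72 (SE 0.17) had an adjusted p of 0.0144 in edgeR's test and was not called. DESeq2 called it (adjusted p 0.00368), limma-voom did not (0.0126), and edgeR did so with the GC content and length correction (0.00252) or without ASO_LINC#3 replicate 3 (0.00771). *BECN1*, a subunit of the lipid kinase complex, was at 73.1, 77.8 and 79.8 CPM in controls and 111, 107 and 97.1 CPM after knockdown, again without overlap. Its log2 fold change of 0.45 (SE 0.12) stayed below the bound, with an edgeR adjusted p of 0.0305. *ATG13*, a partner of ULK1, went the other way in its fitted value at -0.58 (edgeR adjusted p of 0.0888). Its libraries overlapped, with 38.7 to 55.2 CPM in controls and 32.3, 22.2 and 40.7 CPM after knockdown. Without ASO_LINC#3 replicate 3 edgeR called *ATG13* lower (log2 fold change -0.77, adjusted p 0.00854). The same fit called *BECN1* higher (0.505, adjusted p 0.00357). In the annotation *BECN1* shares 35.6% of its 75-base stretches with *CNTD1*, which reached at most 0.813 CPM in any library.

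The 16 *ATG* genes include the enzymes and carriers of the conjugation reactions that attach LC3 to lipid. All 16 were tested, 1 was called (6.25%, beside 7.54% of all genes), 11 had a log2 fold change above 0, and the median was 0.27. The called gene was *ATG16L2*, a paralog of the scaffold ATG16L1 that places the conjugation enzyme on membranes. It stood at 16.3, 14.8 and 17.6 CPM in controls and at 31.7, 29.6 and 25.5 CPM after knockdown, a log2 fold change of 0.84 (SE 0.16, adjusted p = 0.00571 by edgeR). Every knockdown library was above every control library, yet of the 6 fits that left out 1 library, the call held only without ASO_LINC#3 replicate 3. *ATG16L1* had a log2 fold change of 0.17, not called.

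*ATG12*, the ubiquitin-like protein joined to ATG5, was the most abundant *ATG* transcript by CPM, at 118, 110 and 124 CPM in controls and 195, 189 and 138 CPM after knockdown. All 3 knockdown libraries were higher, replicate 3 least so, and the log2 fold change of 0.57 (SE 0.15) had an adjusted p of 0.0255 by edgeR. *ATG3*, the enzyme that transfers LC3 to lipid, had the same order of the knockdown libraries, with 97.0, 107 and 106 CPM in controls and 162, 144 and 111 CPM after knockdown (log2 fold change 0.43, edgeR adjusted p of 0.0756). *ATG10*, which transfers ATG12 to ATG5, was lower without overlap, at 9.29, 11.2 and 11.2 CPM against 5.73, 6.85 and 5.96 CPM. Its log2 fold change of -0.77 (SE 0.20) had an adjusted p of 0.0244 by edgeR and was not called.

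*ATG7*, the activating enzyme of both conjugation reactions, was decided by 1 library. It was measured at 16.0, 11.4 and 15.1 CPM in controls and at 19.3, 19.3 and 59.9 CPM after knockdown, so ASO_LINC#3 replicate 3 alone stood far above the rest. The fitted log2 fold change was 1.16 (SE 0.39, edgeR adjusted p of 0.0652), and 0.43 without that library. Of the other tools, DESeq2 called it and limma-voom did not. In the annotation *ATG7* shares 29.0% of the 75-base stretches of its transcript with the neighbouring *VGLL4*, which was at 70.7 to 76.9 CPM in controls and 89.0 to 101 CPM after knockdown. The protease gene *ATG4A* had a log2 fold change of 0.61 with an edgeR adjusted p of 0.140.

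The LC3 and GABARAP proteins coat the autophagosome and bind receptors. Of these 6 genes 5 were tested, all 5 had a log2 fold change above 0 (median 0.43), and 2 were called (40.0%, beside 7.54% of all genes). The median is the value of *MAP1LC3A*, a gene at 1.05 to 5.42 CPM. Without ASO_LINC#3 replicate 3 the log2 fold change of *MAP1LC3A* was -0.06, so its sign rests on that library. In that fit the others of these 5 stayed above 0, from 0.06 for *GABARAPL1* to 1.05 for *MAP1LC3B2*, with *GABARAPL2* at 0.51. *MAP1LC3B*, the gene of LC3B (chr16:87417559-87438385 on the plus strand, GRCh37), was at 174, 187 and 184 CPM in controls and 303, 338 and 304 CPM after knockdown. The means were 182 ± 7.09 and 315 ± 19.9 CPM (SD, n = 3 each), with no overlap, and the log2 fold change was 0.79 (SE 0.12, adjusted p = 0.0014 by edgeR).

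*MAP1LC3B2* (chr12:116985910-117014411, plus strand, GRCh37) stood at 16.3, 16.3 and 16.4 CPM in controls and at 36.7, 31.0 and 31.4 CPM after knockdown. The control libraries were almost equal and every knockdown library was above them, a log2 fold change of 1.02 (SE 0.15, adjusted p = 0.00136 by edgeR). It is a near copy of *MAP1LC3B*: 43.8% of the 75-base stretches of its transcript also occur in *MAP1LC3B*, so how the reads were split between both is uncertain. In the fits without ASO_CTRL replicate 3, *MAP1LC3B* and *MAP1LC3B2* were not called (edgeR adjusted p of 0.0146 and 0.0140). *MAP1LC3B* was also lost without ASO_CTRL replicate 1 and *MAP1LC3B2* without ASO_LINC#3 replicate 1.

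*GABARAPL2* had 138, 145 and 154 CPM in controls and 200, 213 and 155 CPM after knockdown, so that knockdown replicate 3 lay just above the highest control (log2 fold change 0.38, edgeR adjusted p of 0.0894). *GABARAPL1* was at 50.6 to 54.7 CPM against 54.6 to 58.3 CPM, with a log2 fold change of 0.08 and a standard error of 0.13. *MAP1LC3A* was low, between 1.05 and 5.42 CPM in all libraries, with a log2 fold change of 0.43 and a standard error of 0.52. *GABARAP* itself failed the filter, at 4, 11 and 14 reads in controls and 3, 9 and 6 after knockdown. In the annotation 60.8% of the 75-base stretches of its transcript are shared with a readthrough gene, and how the authors counted such reads is not stated in the sources used here.

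*SQSTM1*, the p62 receptor that links ubiquitinated cargo to LC3, was the most abundant of the 60 genes per length of transcript in controls, at 662 CPM per kb, followed by *ATP6V1G1* at 179 and *ATP6V1F* at 177 CPM per kb. It lies on the plus strand of chr5:179233398-179265078 (GRCh37). Its level was 1927, 1824 and 1886 CPM in controls and 2993, 3067 and 3305 CPM after knockdown. The groups did not overlap, with means of 1879 ± 51.8 and 3121 ± 163 CPM (SD, n = 3 each) and a log2 fold change of 0.73 (SE 0.11, adjusted p = 0.00129 by edgeR). The call was lost in 1 of the 6 fits with a library left out, that without ASO_CTRL replicate 3 (edgeR adjusted p of 0.0133). *SQSTM1* shares 52.1% of its 75-base stretches with *MRNIP*, which is listed under the older name *C5orf45* at 12.4 to 15.5 CPM in controls and 12.9, 14.0 and 33.6 CPM after knockdown, far below *SQSTM1*.

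*NBR1*, a receptor of the same kind, was at 77.7, 74.2 and 79.7 CPM in controls and 102, 104 and 80.2 CPM after knockdown. Replicates 1 and 2 were higher and replicate 3 lay just above the highest control, and the log2 fold change of 0.31 (SE 0.14, edgeR adjusted p of 0.152) was not called.

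**Figure D2:**
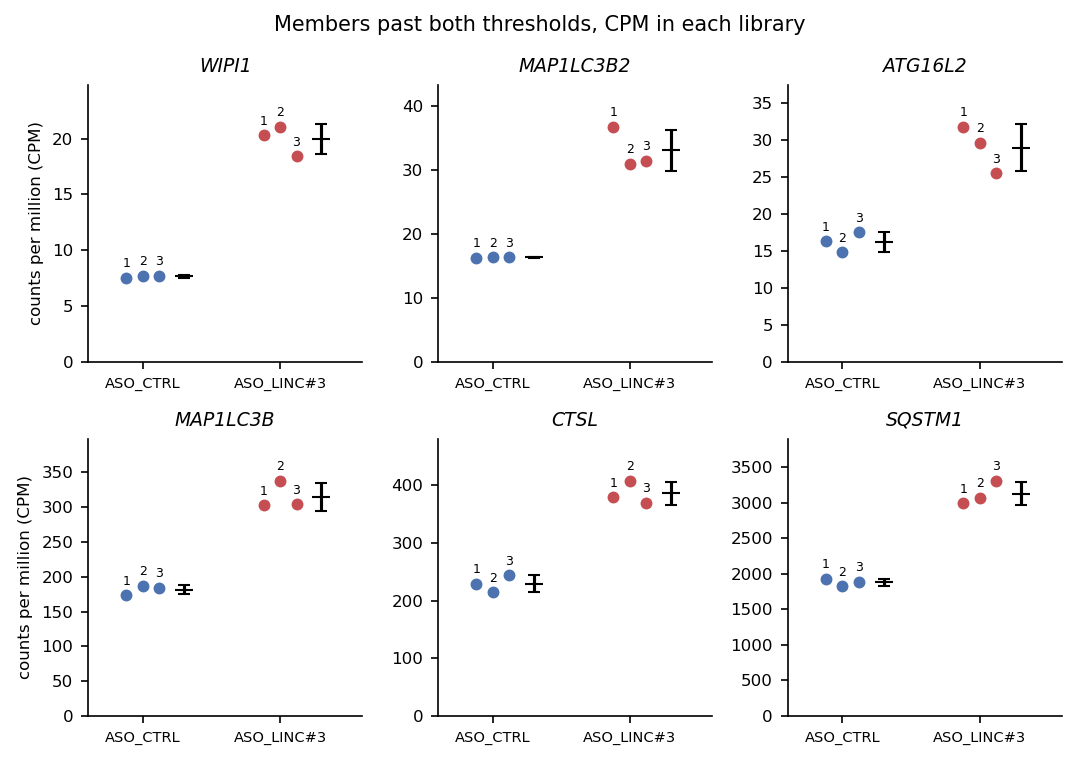
CPM (y axis, from 0) of the 6 called genes in each library of ASO_CTRL (blue) and ASO_LINC#3 (red), with the replicate number above each point and the mean and SD of the 3 libraries in black. In each panel the lowest knockdown library lies above the highest control, for *WIPI1* at 18.4 against 7.74 CPM and for *SQSTM1* at 2993 against 1927 CPM.

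Of the regulator *TFEB* and the membrane proteins *MCOLN1* and *LAMP2*, none was called by edgeR, DESeq2 or limma-voom. *TFEB* was low in all libraries, at 2.15, 2.58 and 2.67 CPM in controls and 1.76, 2.74 and 2.98 CPM after knockdown, and its log2 fold change of -0.03 (SE 0.31) changed sign with the processing. *MCOLN1*, a calcium channel of the lysosomal membrane, was at 5.39, 7.92 and 6.68 CPM in controls and 4.56, 3.59 and 7.59 CPM after knockdown, with overlap between the groups (log2 fold change -0.39, SE 0.29). *LAMP2*, a major glycoprotein of that membrane, was at 118, 147 and 135 CPM in controls and 182, 191 and 159 CPM after knockdown. Its groups did not overlap, and the log2 fold change of 0.41 (SE 0.14) had an adjusted p of 0.0572 by edgeR.

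Of the 7 genes of the V0 sector, all tested, 0 were called by edgeR (beside 7.54% of all genes), DESeq2 or limma-voom. In edgeR's test 0 had an unadjusted p below 0.05, beside 4752 of the 14660 genes tested. For 0 did the groups not overlap, beside 36.1% of all genes. The median log2 fold change of the 7 was 0.02, and their summed level was 265 to 334 CPM in controls and 261 to 319 CPM after knockdown. *ATP6V0E1*, the most abundant by CPM, was at 225, 158 and 211 CPM in controls and 170, 183 and 150 CPM after knockdown. The fitted values of this sector ran from -0.54 for *ATP6V0E2*, at 2.07 to 4.77 CPM in controls, to 0.29 for *ATP6V0A1*, at 13.6 to 16.6 CPM. Both had overlapping libraries.

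Of the 12 names of the V1 sector 10 were tested and 0 were called by edgeR, beside 7.54% of all genes. In edgeR's test 4 had an unadjusted p below 0.05, beside 4752 of the 14660 genes tested. Only 1, *ATP6V1B2*, was called by DESeq2 and by limma-voom. The median log2 fold change of the 10 was 0.03. *ATP6V1B2*, a B subunit found in most tissues, stood at 13.9, 11.4 and 13.5 CPM in controls and at 22.8, 25.3 and 19.5 CPM after knockdown. Its groups did not overlap, and its log2 fold change of 0.80 (SE 0.17) had an adjusted p of 0.0102 by edgeR, just outside the threshold. The other B subunit, *ATP6V1B1*, typical of acid-secreting epithelia, was read 14, 12 and 15 times in controls and 2, 2 and 6 times after knockdown. It passed the filter through the control libraries, its CPM overlapped because of replicate 3 (1.63 CPM against 1.43 CPM in the lowest control), and its log2 fold change of -1.46 had a standard error of 0.56 (edgeR adjusted p of 0.0949). In the annotation 87.5% of its 75-base stretches are shared with *VAX2*.

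*ATP6V1G1*, a stalk subunit and the most abundant V1 transcript, was at 251, 277 and 310 CPM in controls and 362, 386 and 298 CPM after knockdown, with a log2 fold change of 0.32 that was not called (edgeR adjusted p of 0.141). *ATP6V1C2*, with at most 4 reads in any library, and the pseudogene *ATP6V1E1P1*, with at most 9, were the remaining names not tested.

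The 11 cathepsins were all tested. 1 was called (9.09%, beside 7.54% of all genes), 6 had a log2 fold change above 0, and the median was 0.22. The called gene was *CTSL* (chr9:90338966-90346384, plus strand, GRCh37), which encodes the cysteine protease cathepsin L. It was at 230, 215 and 244 CPM in controls and at 380, 408 and 370 CPM after knockdown, with no overlap, and rose by 0.75 on the log2 scale (SE 0.12, adjusted p = 0.00205 by edgeR). Without 1 library the adjusted p rose to at most 0.0137, and the call held only without ASO_LINC#3 replicate 3.

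*CTSH*, a protease that trims peptides from their amino end, was lower in every knockdown library, at 24.7, 23.4 and 38.2 CPM against 48.5, 53.3 and 48.4 CPM. Its log2 fold change of -0.82 (SE 0.19) had an adjusted p of 0.0139 by edgeR and was not called, although DESeq2 and limma-voom called it. *CTSB*, the most abundant cathepsin by CPM, was at 371, 350 and 345 CPM in controls and 374, 392 and 495 CPM after knockdown, a difference of 0.24 on the log2 scale that did not pass (edgeR adjusted p of 0.247). *CTSD*, the main aspartic protease of the lysosome, was at 155, 155 and 138 CPM in controls and at 110, 106 and 214 CPM after knockdown, so that replicates 1 and 2 lay below the controls and replicate 3 above them. *CTSV* showed the opposite, with 10.6 and 15.6 CPM in replicates 1 and 2 and 5.42 CPM in replicate 3, against 6.46 to 7.25 CPM in controls. In the annotation 60.8% of the 75-base stretches of the *CTSD* transcript are shared with other genes.

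This disagreement of ASO_LINC#3 replicate 3 ran through the set. Its log2 change had the opposite sign to both other knockdown libraries in 13 of the 57 genes, and it was off the mean of these libraries by over 0.5 in 19. In 15 of the 19 it was above, and their transcripts had a median GC content of 58.2%, beside 42.2% in the 4 below and 46.1% in the 38 within 0.5. With GC content and length of the transcripts corrected for in every library, 13 genes were off by over 0.5, 11 of the 19 and 2 others, *ATG16L2* and *ATG2A*. *ATG7* was among those hardly moved by the correction, at 1.62 above the other libraries before and 1.61 after it. For the 6 called genes replicate 3 lay within 0.5 of the others before correction, while after it *ATG16L2* lay 0.78 below them.

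**Figure D3:**
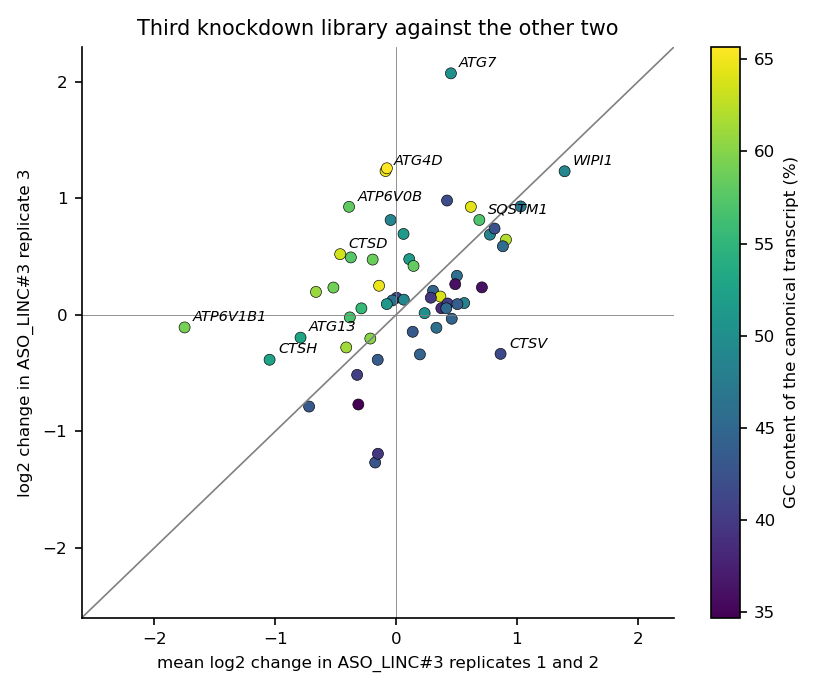
Log2 change against the control mean of the 57 tested genes in ASO_LINC#3 replicate 3 (y axis) and, as the mean, in replicates 1 and 2 (x axis), with the GC content of the canonical transcript in colour and the diagonal of equal change. 15 genes lie over 0.5 above the diagonal, among them *ATG7* and *CTSD*, and 4 lie over 0.5 below it, among them *CTSV*.

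Promoter sequences from RefSeq (GRCh38.p14, 250 bases before to 50 after the annotated start) were matched by symbol for 47 of the 60 genes. They were searched on both strands for 7 motifs. The core of the TFEB element, CACGTG, was in 10 of the 47 promoters (21.3%), in 10.4% of 8820 promoters of tested genes and in 7.43% of all 27305 promoters. The longer form TCACGTGA, which contains this core, was in 5 of the 47 (10.6%), beside 2.07% and 1.04%. None of the 6 called genes had the core in this window. The 10 genes with the core, *ATG3*, *ATG14*, *ATP6V0B*, *ATP6V0D1*, *ATP6V0E2*, *ATP6V1G1*, *CTSA*, *CTSD*, *CTSF* and *MCOLN1*, had 0 calls and a median log2 fold change of -0.06 (range -0.54 to 0.43). The 35 tested genes whose window lacks it had 6 calls and a median of 0.27 (range -1.46 to 1.38), beside 7.54% called and a median of -0.0027 over all genes. In 4 of the 10 with the core the log2 fold change was above 0. These are descriptions of letters in a window, with no test, and lack of a match there says nothing about binding.

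**Figure D4:**
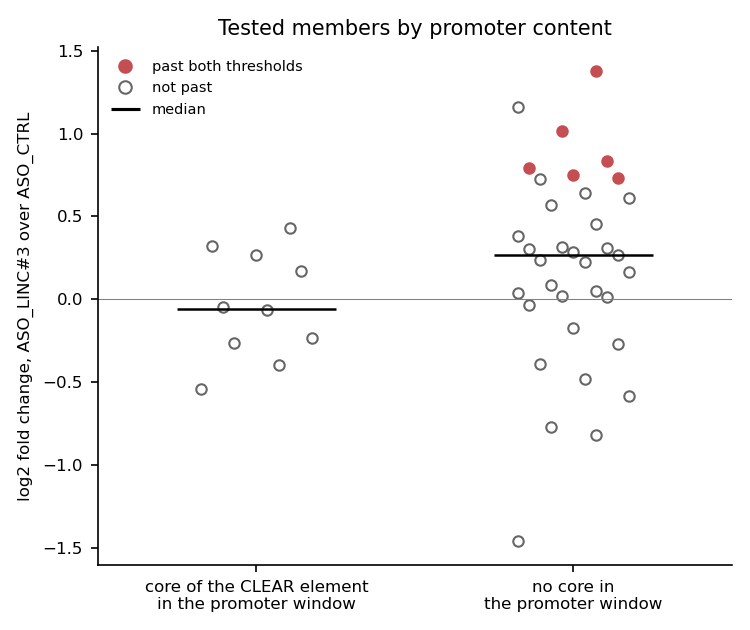
Log2 fold change (y axis) of the tested genes with a RefSeq promoter, split by whether CACGTG occurs in the promoter window, with a line at the median and filled points for genes past both thresholds. The 10 genes with the core lie between -0.54 and 0.43 and the 6 called genes all lie among the 35 without it.

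To show what such windows hold, the 100 bases before the start are printed 5′ to 3′ for 4 genes that rose and for 6 of the 10 with the core, 2 of them, *ATP6V1G1* and *ATP6V0B*, with a log2 fold change above 0 (0.32 and 0.17, not called). Capitals mark TCACGTGA, CACGTG and TGACNNNGC, the antioxidant response element bound by NRF2, on either strand. The windows are chr17:68457497-68457596 on the minus strand for *WIPI1*, chr5:179806293-179806392 on the plus strand for *SQSTM1*, chr16:87392236-87392335 on the plus strand for *MAP1LC3B*, chr9:87726019-87726118 on the plus strand for *CTSL*, and chr19:7522524-7522623 on the plus strand for *MCOLN1*, chr20:45891235-45891334 on the plus strand for *CTSA*, chr16:67481158-67481257 on the minus strand for *ATP6V0D1*, chr9:114587669-114587768 on the plus strand for *ATP6V1G1*, chr1:43974860-43974959 on the plus strand for *ATP6V0B* and chr11:1763928-1764027 on the minus strand for *CTSD*.
WIPI1: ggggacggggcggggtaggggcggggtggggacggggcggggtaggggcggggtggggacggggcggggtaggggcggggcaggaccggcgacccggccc
SQSTM1: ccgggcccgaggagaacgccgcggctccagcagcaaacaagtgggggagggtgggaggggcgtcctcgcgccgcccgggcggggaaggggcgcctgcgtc
MAP1LC3B: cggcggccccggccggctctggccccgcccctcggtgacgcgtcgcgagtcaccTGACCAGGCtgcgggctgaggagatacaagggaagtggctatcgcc
CTSL: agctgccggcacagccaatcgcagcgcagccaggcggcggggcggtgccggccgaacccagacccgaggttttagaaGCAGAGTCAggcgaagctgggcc
MCOLN1: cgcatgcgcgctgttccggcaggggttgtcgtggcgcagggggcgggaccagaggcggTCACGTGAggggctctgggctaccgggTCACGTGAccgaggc
CTSA: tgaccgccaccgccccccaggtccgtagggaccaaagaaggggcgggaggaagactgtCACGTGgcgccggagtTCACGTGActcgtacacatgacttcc
ATP6V0D1: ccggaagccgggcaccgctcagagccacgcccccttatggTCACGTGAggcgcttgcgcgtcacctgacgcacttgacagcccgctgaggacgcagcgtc
CTSD: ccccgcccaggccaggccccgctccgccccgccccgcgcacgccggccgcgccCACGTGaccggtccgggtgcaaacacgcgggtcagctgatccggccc
ATP6V1G1: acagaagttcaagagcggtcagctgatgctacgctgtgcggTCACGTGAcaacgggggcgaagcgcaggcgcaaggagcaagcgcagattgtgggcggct
ATP6V0B: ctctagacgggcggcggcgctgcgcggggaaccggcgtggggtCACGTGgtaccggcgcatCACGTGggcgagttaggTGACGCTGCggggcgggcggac

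TGACNNNGC was in 11 of the 47 promoters (23.4%), beside 15.2% of the promoters of tested genes and 13.6% of all, and in 2 of the 6 called genes, *MAP1LC3B* and *CTSL*. The AP-1 motif TGANTCA and the ATF4 and CHOP composite motif TGATGNAA were in 0 of the 47, beside 4.59% and 1.49% of the promoters of tested genes. The hypoxia response cores ACGTG, which also lies within CACGTG, and GCGTG were in 40.4% and 57.4% of the 47, beside 26.8% and 51.7%, and in 0 and 2 of the 6 called.

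Other genes of the pathway came from 7 lists with 144 names, of which 124 were tested and 15 were called (12.1%, beside 7.54% of all genes), 13 higher and 2 lower. This number too depended on libraries, from 5 without ASO_CTRL replicate 3 to 32 without ASO_LINC#3 replicate 3, with 9, 8, 7 and 8 in the fits without ASO_CTRL replicate 1, ASO_CTRL replicate 2, ASO_LINC#3 replicate 1 and ASO_LINC#3 replicate 2. The share of all genes called moved with it, from 2.42% without ASO_CTRL replicate 3 to 17.2% without ASO_LINC#3 replicate 3. Of the autophagy machinery outside the names above, 7 of 21 tested genes were called (33.3%, beside 7.54% of all genes), 6 higher and 1 lower (median log2 fold change 0.22). In it *RB1CC1*, the scaffold of the ULK1 complex, was at 4.98, 9.46 and 7.44 CPM in controls and 16.2, 20.5 and 15.7 CPM after knockdown (log2 fold change 1.28, SE 0.24, adjusted p = 0.00527 by edgeR). *WIPI2*, the paralog of *WIPI1* that recruits the conjugation machinery, was at 111, 116 and 109 CPM in controls and 178, 189 and 186 CPM after knockdown (log2 fold change 0.72, adjusted p = 0.00233 by edgeR). The other 2 WIPI paralogs, *WDR45* and *WDR45B*, rose by 0.99 and 0.80, so that all 4 genes of this family were called. *WIPI2*, *WDR45* and *PLEKHM1*, an adaptor for lysosome fusion that rose by 0.92, kept their calls in only 1 of the 6 fits with a library left out, and *RB1CC1* and *WDR45B* in 2. *RAB7A*, the late endosomal GTPase, had a log2 fold change of 0.56 and was called in none of these fits.

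*ULK2*, the paralog of *ULK1*, fell. It was at 16.2, 18.1 and 17.5 CPM in controls and 9.11, 9.75 and 7.32 CPM after knockdown, a log2 fold change of -0.96 (SE 0.18, adjusted p = 0.00534 by edgeR), with the call kept in 1 of the 6 fits with a library left out. *ULK1* and *ULK2* thus had fitted values of opposite sign, of which that of *ULK2* was called.

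Of 13 tested receptors of selective autophagy, 3 rose (23.1%, beside 4.91% of all genes called higher) and 0 were called lower by edgeR (3 lower with an unadjusted p below 0.05, and 2 called lower by DESeq2 and 1 by limma-voom), with a median of 0.17. *BNIP3*, a receptor on mitochondria and a target of hypoxia signalling, was at 32.2, 26.7 and 35.4 CPM in controls and 155, 146 and 118 CPM after knockdown (log2 fold change 2.15, SE 0.16, adjusted p = 2.64e-05 by edgeR). Its paralog *BNIP3L* was at 97.5, 104 and 117 CPM in controls and 462, 478 and 310 CPM after knockdown (log2 fold change 1.97, adjusted p = 6.83e-05 by edgeR). Both were called in each of the 6 fits with a library left out. *OPTN*, a receptor for ubiquitinated cargo, was at 106, 101 and 97.6 CPM against 178, 195 and 172 CPM, a log2 fold change of 0.84 with an edgeR adjusted p of 0.00121, and was lost without ASO_CTRL replicate 3.

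Of 20 lysosomal membrane proteins 1 was called (5%, beside 7.54% of all genes), *NPC1*, which exports cholesterol. It was at 37.4, 32.2 and 31.8 CPM in controls and 74.2, 79.7 and 54.2 CPM after knockdown (log2 fold change 1.04, edgeR adjusted p of 0.00225), and its call was lost without ASO_CTRL replicate 2, ASO_CTRL replicate 3 or ASO_LINC#3 replicate 1. The median of the list was 0.09. Of 32 hydrolases other than cathepsins 1 was called (3.13%, beside 7.54%), *IDS*, an iduronate sulfatase, at 45.1, 50.8 and 49.9 CPM against 87.0, 94.6 and 93.3 CPM (log2 fold change 0.91, edgeR adjusted p of 0.000942). It was lost without ASO_CTRL replicate 3, and the median of the list was 0.02. Of 10 accessory and assembly genes of the proton pump 0 were called by edgeR (beside 7.54%), DESeq2 or limma-voom. In edgeR's test 2 of them had an unadjusted p below 0.05, beside 4752 of the 14660 genes tested, and their median was 0.14. Of 3 cathepsin inhibitors 0 were called by any of these tools, with 0 unadjusted p-values below 0.05 in edgeR's test and a median of -0.15.

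Of 25 tested regulators of mTORC1 and of the TFEB family, 2 rose and 1 fell (12% called, beside 7.54% of all genes), with a median of -0.03. *LAMTOR1*, the anchor that brings mTORC1 to the lysosome, was at 179, 227 and 239 CPM in controls and 90.4, 81.5 and 110 CPM after knockdown (log2 fold change -1.20, SE 0.16, adjusted p = 0.00078 by edgeR). The genes that rose, *SESN2* (1.15) and *DDIT4* (2.19), encode stress-induced inhibitors of mTORC1. These 3 genes were called in each of the 6 fits with a library left out. *RHEB* was at 401, 551 and 494 CPM in controls and 781, 769 and 613 CPM after knockdown. Its log2 fold change of 0.58 (edgeR adjusted p of 0.0236) was called by DESeq2 and not by limma-voom. In edgeR's test 8 of the 25 were higher and 4 lower with an unadjusted p below 0.05, beside 4752 of the 14660 genes tested.

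**Figure D5:**
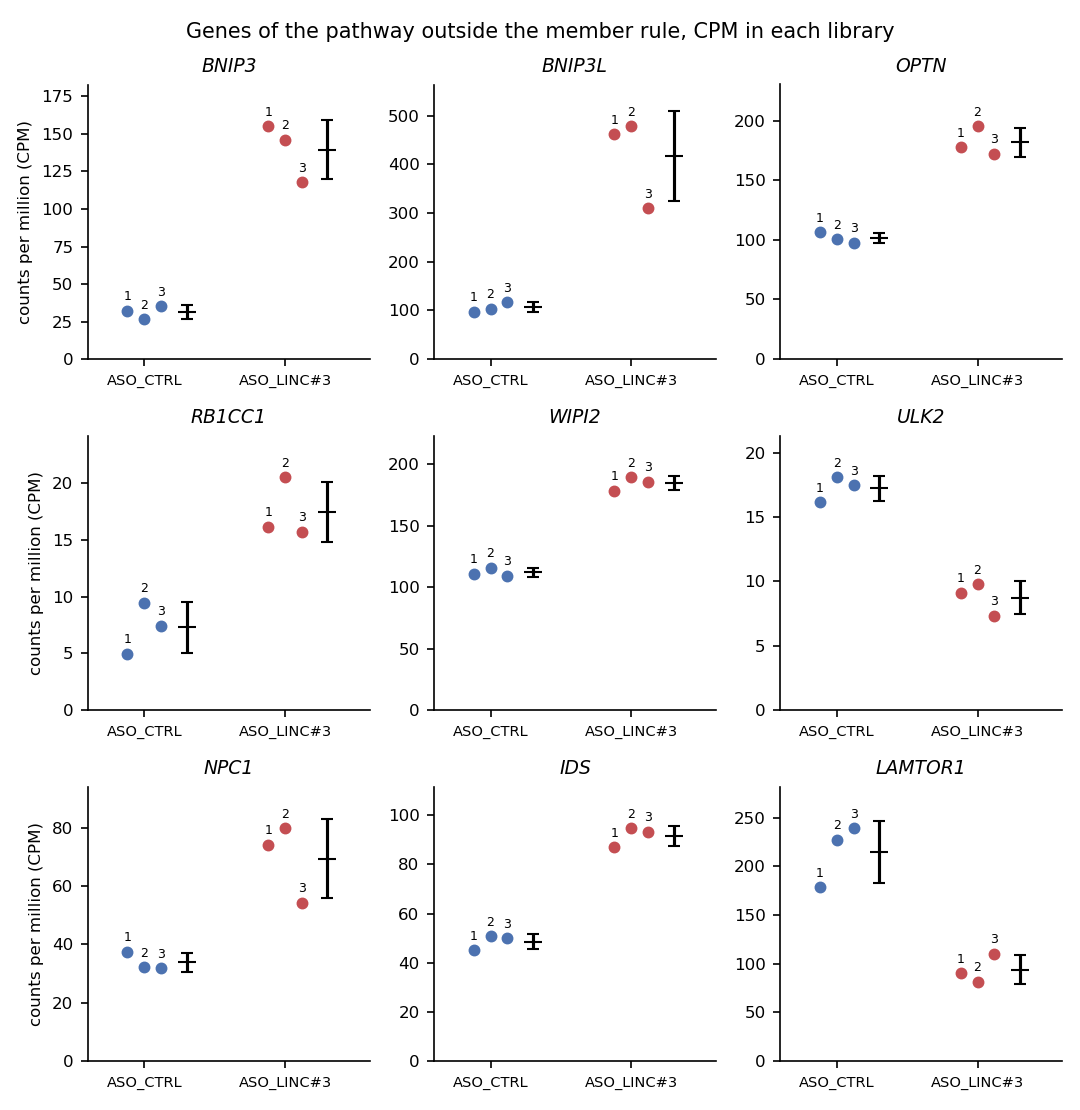
CPM (y axis, from 0) of 9 called genes of the further lists in each library of ASO_CTRL (blue) and ASO_LINC#3 (red), with the replicate number above each point and the mean and SD of the 3 libraries in black. *ULK2* and *LAMTOR1* are lower in every knockdown library, the other 7 are higher, and for *BNIP3L* replicate 3 lies at 310 CPM, below the other knockdown libraries and above the controls.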

How the data were processed

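Total RNA of 6 samples of H226 cells was reverse-transcribed with dT oligonucleotides, and the libraries were sequenced. According to the submitters' processing notes, STAR and edgeR were used with hg19. The authors deposited whole-number read counts per gene name, without normalization or pooling. The program that counted the reads, the annotation behind it and its use of strand are not given in the sources used here, so reads of overlapping genes may be assigned to either. Totals of reads on no gene (24.8% to 28.1% of a library) were left out, and there were 0 columns of other samples. The methods text on RNA-seq names another cell line, and the labels, followed here, name H226.

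Counts were analysed in R 4.3.3 with edgeR 4.0.16 (filterByExpr, TMM, quasi-likelihood F-test, Benjamini-Hochberg adjustment over 14660 genes, and a call at an adjusted p below 0.01 with a log2 fold change beyond 0.5). The standard error is the log2 fold change divided by the root of F. The change of a single library is its log2 CPM (prior count 2) less the control mean. The common biological coefficient of variation was 0.159. Libraries of a condition differed beyond sampling noise in every pair (chi-square per degree of freedom 2.63 to 15.6), so none was treated as a repeat deposit of another. On simulated data the comparison called 44 of 96 genes with a log2 change of 1 and 89 of 96 with a change of 2. Of 14253 unchanged genes it called 4. A gene not called may therefore still have changed.

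Genes named are those past both thresholds or beyond the fold bound, the 8 picked by name, in each family the highest and the largest changes either way, and at most 5 called genes of each further list. Some others, *WDR45* and *RAB7A* among them, were named after their values were seen, as were the shared-sequence check, the comparison of replicate 3 with GC content and the promoter windows printed. The genes and lists were chosen with earlier results of these data known. Positions, lengths and GC content came from a GENCODE annotation on GRCh37 (13370 of 17222 names matched, and 964 by an older symbol), and levels per kb use the length of the canonical transcript. Alternatives were DESeq2 1.42.0, limma-voom (limma 3.58.1), other scalings, filters, thresholds and dispersion, glmTreat, a replicate block, a GC content and length correction, and leaving out each library.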

Additional observations from a re-analysis of the deposited data

How the results depend on the processing

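The 6 called genes stayed at 6 to 8 under the other scalings, the filters, robust dispersion, limma-voom and no fold bound. DESeq2 called 10 (9 higher, 1 lower), limma-voom 8 with 1 lower, the GC content and length correction 10 (2 lower), and an adjusted p below 0.05 gave 11 (2 lower). Of all genes these settings called, in this order, 10.9%, 8.27%, 11.8% and 16.8%, beside 7.54% in the main fit. glmTreat, which tests against the bound itself, left 1, *WIPI1*, beside 2.62% of all genes. It left 5 of the further genes, which numbered 26 at an adjusted p below 0.05. Leaving out 1 library gave 1 to 16 called genes, 1 to 13 higher and 0 to 3 lower, and 5 to 32 further genes. The share of all genes called ran from 2.42% to 17.2% in these fits. *TFEB* changed sign, to a log2 fold change of 0.018 with the GC content and length correction, and ranged from -0.16 to 0.20 with a library left out (0.04 without ASO_CTRL replicate 3 and 0.20 without ASO_LINC#3 replicate 1). The cause was not tested.

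Same-numbered libraries did not deviate together (correlations 0.06, -0.15 and -0.18 across genes), and the main fit used no pairing. The deviations were taken from means of 3 libraries, so these correlations cannot tell whether the numbers pair the samples. With the replicate block 4 of the 6 remained called, *MAP1LC3B*, *MAP1LC3B2*, *SQSTM1* and *WIPI1*, 10 of the further genes were called, and calls over all genes went from 1106 to 656. Not every library correlated best with its own number. A tally covered the called genes, the autophagy and lysosome genes beyond the fold bound, and *BECN1*, *LAMP2*, *MCOLN1*, *NBR1* and *TFEB*. Of its values under an alternative, 3 changed sign, all of *TFEB*, 80 lost and 26 gained a call, and 592 kept both. Other named genes were not counted, and some of them changed too. Without ASO_LINC#3 replicate 3, the log2 fold change of *MAP1LC3A* went from 0.43 to -0.06 and that of *ATP6V0B* from 0.17 to -0.38. In the same fit *ATG3* and *GABARAPL2* gained a call. Depth limits *TFEB*, *MAP1LC3A*, *ATP6V1B1* and the 3 genes not tested, whose counts were low.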
